A study of Homo sapiens with 9 samples.

Results

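The interferon-stimulated genes and RNA sensors examined here were a fixed list of 48 genes, given by name with no threshold on a measured value, although earlier results of these data were known when it was drawn up. A probe on the array matched 46 of them, out of 47753 genes and unnamed transcripts measured, and IFI27 and SAMD9L matched none. Expression was measured in OEC-M1 cells, an established line of head and neck squamous cell carcinoma (HNSCC), on Agilent one-colour oligonucleotide arrays. All 9 samples were kept at 1% oxygen for 18 h and taken 72 h after transfection, so every value describes hypoxic, transfected cells, and the series held no normoxic or untransfected sample. There were 3 samples each of si-Control (a non-targeting siRNA), GATA3 knockdown (siGATA3) and HIF-1α knockdown (siHIF1A). GATA3 is a zinc-finger transcription factor and HIF-1α is the oxygen-regulated subunit of hypoxia-inducible factor 1. A legend of the study names 1 siRNA design per target for these profiles, siGATA3-2 and siHIF-1α-2, so an effect of the target and one of that siRNA cannot be told apart. Whether the 3 samples of a group came from separate cultures was not given in the sources used here, so P values measure the spread between these samples only.

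Interferon-stimulated genes are the programme that cells switch on when type I, II or III interferons bind their receptors. Double-stranded RNA in the cytosol or in endosomes is read by sensors such as MDA5 (encoded by IFIH1) and TLR3, which signal through the adaptors MAVS and TRIF to IRF3 and IRF7 and so to interferon-β (IFNB1). Secreted interferon then acts through a complex that holds STAT2 and IRF9 and binds the interferon-stimulated response element (ISRE) in promoters, and a second promoter element of interferon responses is the gamma-activated site (GAS). The products block virus by cutting or trapping foreign RNA, by altering membranes and by conjugating the ubiquitin-like protein ISG15. Transfected double-stranded RNA, siRNA among it, can engage such sensors, and every group here had received siRNA.

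All levels below are log2 intensities after background correction and quantile normalisation, and a difference of 1 on that scale is a 2-fold difference. The sample titles end in a number from 1 to 3, which was read here as the replicate number. The titles do not say so, and the study's methods use the endings -1 and -2 for siRNA designs. That number was also the slide: each of 3 slides carried 1 array of every group, and a group sat at one position on every slide. A difference between groups and one between positions on the slide therefore cannot be told apart. The label check held for both targets. GATA3 was at 11.10 ± 0.39 (SD, n = 3) in si-Control and 9.84 ± 0.49 in GATA3 knockdown (log2 change -1.26, limma adjusted P = 1.00). HIF1A was at 16.72 ± 0.47 in si-Control and 14.40 ± 0.24 in HIF-1α knockdown (log2 change -2.31, adjusted P = 0.299). Both passed the unadjusted threshold of 0.05 that the study used and that every call below uses. The median raw intensity ran from 992.5 in si-Control replicate 3 to 3560 in HIF-1α knockdown replicate 1. Of the 9 epithelial and squamous markers examined, 7 or 8 were well above background on each array, and KRT5 was so on none. Of the 12 markers of leukocytes, dendritic cells, endothelium and fibroblasts, 8 to 11 were also above background on each array, with LUM above it on none, so a signal above background on these arrays does not by itself mark a cell type. In at least 1 group, 45 of the 46 genes stood well above background on each of its 3 arrays. The exception was MX1, a dynamin-like antiviral GTPase, whose probe was not above background on any of the 9 arrays.

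The choice of the list did not use promoter sequence. Its genes were named as interferon-stimulated, however, and the ISRE is an element of that response. The shares below are therefore a description and not separate support. RefSeq promoters (GRCh38.p14, 250 bases before to 50 bases after each annotated start) were at hand for 39 of the 48 genes. The ISRE core GAAANNGAA, searched on both strands, was in at least 1 promoter of 27 of the 39 genes (69.2%), against 2693 of 27305 genes in the whole promoter table (9.86%). The GAS letters TTCNNNGAA, which read the same on both strands, were in 13 of the 39 (33.3%), against 9.38% of all genes. A match of this length is a description of the sequence and not a binding site. The promoters of OAS1, IRF9, STAT2, IRF1, MAVS and IFNB1, whose levels are described below, held no ISRE core. The windows that follow are a stretch around 1 match lying wholly before an annotated start, for 7 genes whose levels are described below, read 5′ to 3′ on the strand of the gene, with the core in capitals. Where the capitals read TTCNNTTTC the core lies on the opposite strand.
ISG15 (chr1:1013361-1013439, plus strand): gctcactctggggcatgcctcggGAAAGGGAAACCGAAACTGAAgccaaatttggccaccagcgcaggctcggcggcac
RSAD2 (chr2:6877598-6877676, plus strand): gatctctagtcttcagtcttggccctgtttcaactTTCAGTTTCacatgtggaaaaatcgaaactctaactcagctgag
IFIH1 (chr2:162318685-162318740, minus strand): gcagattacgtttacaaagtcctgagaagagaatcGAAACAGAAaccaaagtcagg
DDX60 (chr4:168318762-168318840, minus strand): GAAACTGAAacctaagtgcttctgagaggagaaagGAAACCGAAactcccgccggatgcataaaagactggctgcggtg
IFIT3 (chr10:89327841-89327919, plus strand): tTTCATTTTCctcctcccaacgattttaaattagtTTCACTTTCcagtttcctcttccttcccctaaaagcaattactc
IFIT1 (chr10:89392486-89392564, plus strand): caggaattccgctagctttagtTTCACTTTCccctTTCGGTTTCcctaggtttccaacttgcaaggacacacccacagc
BST2 (chr19:17405711-17405789, minus strand): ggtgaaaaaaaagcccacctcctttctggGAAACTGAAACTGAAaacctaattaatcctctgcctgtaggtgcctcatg
In ISG15 the core occurred 3 times in overlapping tandem, and in BST2 2 times in the same way. IFIT1, IFIT3 and DDX60 each held 2 separate cores within the stretch shown. RSAD2 and IFIT3 each had 2 annotated promoters, both with the core, and the stretch shown lies before the second start of RSAD2 and the first of IFIT3 in gene order. The other match, at 79 bases before the start for RSAD2 and 50 for IFIT3, is nearer to its own start.

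The level of the interferon-stimulated genes varied with the array inside each group. In si-Control, the 45 genes above background lay a median of 0.84 above their own 9-array means in replicate 3 and 0.42 and 0.18 below them in replicates 1 and 2 (deviations of -0.42 and -0.18). The third array was also the highest among those of siGATA3 (0.34, against -0.14 and -0.51) and of siHIF1A (0.29, against -0.10 and -0.01). Over all detected genes the same medians stayed between -0.03 and 0.04 on every array. Quantile normalisation gives all arrays the same distribution, so those medians were largely set by the processing. Array si-Control replicate 3 held the highest of the 9 values for 30 of the 45 genes (66.7%), and for 19.4% of all detected genes. It also held the lowest value for 2 of the 45 genes (4.44%) and for 21.6% of all detected genes, so over the whole array it was the most extreme in both directions, and its correlation with si-Control replicate 1, 0.931, was the lowest within any group. The lowest value lay on GATA3 knockdown replicate 2 for 20 of the 45 (44.4%), against 7.75% of all detected genes. Within si-Control the median SD of these genes was 0.806, against 0.483 over all detected genes, and the corresponding values were 0.562 and 0.396 in GATA3 knockdown and 0.41 and 0.269 in HIF-1α knockdown.

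**Figure D1:**
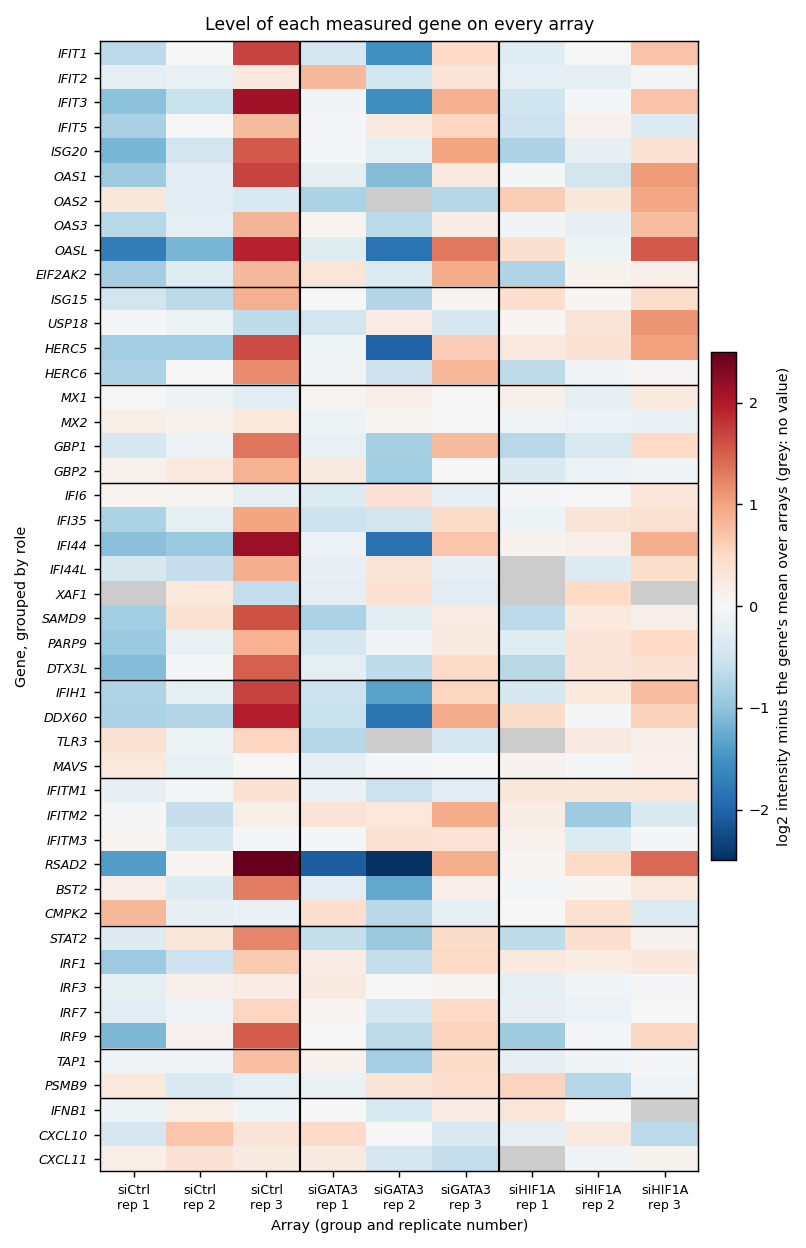
Log2 intensity of the 46 measured genes (rows, grouped by role) on the 9 arrays (columns), each value less that gene's mean over the arrays, with grey where the spot was flagged as non-uniform and gave no value. The column of si-Control replicate 3 is red for most genes, with a median deviation of 0.84 over the 45 detected genes, while GATA3 knockdown replicate 2 is mostly blue, with a median of -0.51.

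A fit with the slide beside the group put numbers on this. The slide term (limma, F test, added after the arrays had been compared) passed an unadjusted P of 0.05 for 22 of the 46 genes (47.8%), against 18% of the 46778 genes tested. None passed after adjustment over all genes (smallest adjusted P = 0.171), and neither did any other gene. In all 22 the third array exceeded the mean of the first and second in each of the 3 groups. The slide term favours genes with such a shared shift, so this is not separate support. Without that selection it held for 30 of the 39 detected genes with every value (76.9%), against 25.2% of all detected genes. The shift was not particular to this list. It also held for TBK1, TRAF6 and JAK1 of the wider interferon pathway and for the epithelial markers EPCAM, CDH1 and SFN. In that wider pathway, IFNAR2, SOCS1 and GBP5 were lower on the third array in every group. The 22 genes past the slide term were OASL, RSAD2, GBP1, ISG20, OAS1, IFIH1, IFIT1, IFIT3, DDX60, SAMD9, IFI44, HERC5, IRF9, PARP9, IFI35, DTX3L, HERC6, OAS3, BST2, EIF2AK2, STAT2 and ISG15. On the values in the authors' own table the count was 19 of 46 (41.3%) against 16.2% of genes. On the 6 knockdown arrays alone it was 11 of 44 (25%) against 5.9%, and without si-Control replicate 3 it was 13 of 45 (28.9%) against 10.3%. The promoter table held 21 of the 22, of which 16 had the ISRE core, and 16 of the other 24 measured genes, of which 10 had it. A pair of the 5 keratins among the epithelial markers, KRT14 and KRT17, passed the slide term as well, and KRT5, KRT6A and KRT18 did not. KRT17 was 2.44, 1.65 and 1.92 higher on the third array of the control, siGATA3 and siHIF1A groups than the mean of the first and second, and KRT14 1.74, 1.60 and 0.90 higher. KRT6A went the other way in the control and siGATA3 groups, with differences of -1.21, -1.29 and 0.04 in the same order. Those of KRT18 were 0.14, 0.28 and 0.32. Of the 9 epithelial and squamous markers 3 passed the slide term, SFN beside KRT14 and KRT17. Of the 12 markers of other cell types none did (smallest adjusted P = 0.293). In the same order the differences were 0.97, 0.66 and 0.12 for SFN and 1.31, 1.06 and 0.10 for EPCAM. Those of CDH1 were 0.99, 0.45 and 0.36. The differences of KRT5 (-0.13, 0.20 and 0.04) and TP63 (0.47, 0.84 and -0.78) were mixed in sign. Slide, scan and replicate number were the same variable in these samples, so a difference between cultures and one between slides cannot be told apart.

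**Figure D2:**
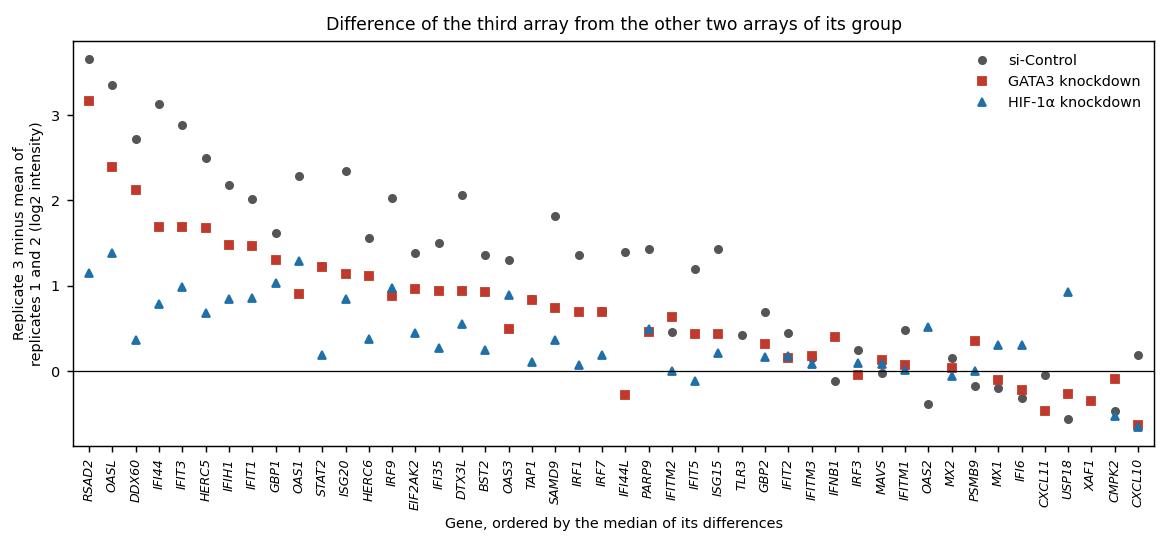
Difference in log2 intensity between the third array and the mean of the first and second array of the same group, for each measured gene (x axis, ordered by the median of its differences) in si-Control (circles), GATA3 knockdown (squares) and HIF-1α knockdown (triangles). RSAD2 and OASL stand at the left with 3.66 and 3.36 in si-Control. MAVS and IRF3 lie near 0 on the brightest probes drawn here, from which their dimmer probes differ in part. IFNB1 is at -0.12 in si-Control and 0.40 in GATA3 knockdown, with no value in HIF-1α knockdown.

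Among the effectors that bind or degrade foreign RNA, IFIT1, which traps RNA lacking the host cap mark, was at 12.35, 12.99 and 14.68 on the si-Control arrays 1 to 3, at 12.58, 11.48 and 13.50 in GATA3 knockdown and at 12.70, 12.98 and 13.70 in HIF-1α knockdown. OAS1, an oligoadenylate synthetase that activates RNase L, was at 8.23, 8.84 and 10.82, at 8.87, 8.03 and 9.35, and at 9.09, 8.67 and 10.18 in the same order. Both genes were highest on the third array of every group, and the 3 groups overlapped. OASL, an oligoadenylate synthetase-like protein without that activity, was at 12.86, 13.43 and 16.50 in si-Control, and IFIT3, a partner of IFIT1, at 12.37, 12.84 and 15.48. IFIT2 did not share this range: it was at 14.90, 14.94 and 15.37 in si-Control, and its slide term did not pass (adjusted P = 0.513).

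The sensors divided in the same way. IFIH1, the cytosolic sensor of long double-stranded RNA, was at 11.88, 12.38 and 14.31 in si-Control, at 12.08, 11.29 and 13.16 in GATA3 knockdown and at 12.22, 12.89 and 13.40 in HIF-1α knockdown. DDX60, a helicase linked to RNA sensing, was at 12.48, 12.54 and 15.23 in si-Control. MAVS, the mitochondrial adaptor downstream of IFIH1, was at 14.16, 13.72 and 13.92 in si-Control, at 13.70, 13.86 and 13.92 in GATA3 knockdown and at 13.99, 13.88 and 14.01 in HIF-1α knockdown. IFIH1 was highest on the third array of each group, and the MAVS probe showed no such order (slide term, adjusted P = 0.185 for IFIH1 and 0.887 for MAVS). The probes of MAVS disagreed, however: in si-Control the third array exceeded the mean of the first and second by 1.61 and 1.28 on a pair of dimmer MAVS probes and differed by -0.03 and 0.01 on the remaining 2.

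Of the transcription factors, IRF9, the DNA-binding subunit of the interferon-activated complex, was at 11.22, 12.44 and 13.85 in si-Control, at 12.33, 11.70 and 12.89 in GATA3 knockdown and at 11.45, 12.29 and 12.85 in HIF-1α knockdown. STAT2, its partner, was at 12.65, 13.27 and 14.20, at 12.37, 12.04 and 13.42, and at 12.34, 13.39 and 13.06. Both were highest on the third array in si-Control and GATA3 knockdown, and only IRF9 was so in HIF-1α knockdown. IRF1, an early activator of interferon genes, was at 10.31, 10.69 and 11.86 in si-Control, at 11.41, 10.61 and 11.70 in GATA3 knockdown and at 11.45, 11.40 and 11.50 in HIF-1α knockdown. IRF7, the amplifier of type I interferon, was at 13.06, 13.28 and 13.88, at 13.41, 12.90 and 13.85, and at 13.14, 13.20 and 13.36. IRF3, which is activated by phosphorylation rather than by induction, was at 14.41, 14.76 and 14.83, at 14.87, 14.62 and 14.70, and at 14.40, 14.57 and 14.59. The spread within groups was thus smallest for IRF3 among these 5 factors in si-Control (SD 0.23) and greatest for IRF9 (SD 1.32).

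ISG15, the ubiquitin-like modifier, was at 15.73, 15.52 and 17.06 in si-Control, at 16.18, 15.46 and 16.25 in GATA3 knockdown and at 16.60, 16.23 and 16.62 in HIF-1α knockdown. HERC5, the ligase that attaches ISG15, was at 11.63, 11.63 and 14.12, at 12.38, 10.48 and 13.11, and at 12.77, 12.86 and 13.50. Both were highest on the third array of each group. RSAD2 (viperin), which makes a chain-terminating nucleotide, had the widest range of all 46 genes, at 9.46, 10.91 and 13.84 in si-Control, at 8.80, 8.39 and 11.75 in GATA3 knockdown and at 10.91, 11.34 and 12.27 in HIF-1α knockdown. BST2 (tetherin), which holds budding virions at the cell surface, was at 11.24, 10.74 and 12.35, at 10.81, 9.80 and 11.24, and at 11.03, 11.12 and 11.32. IFNB1 itself varied little on this scale: it was at 8.99, 9.26 and 9.003 in si-Control, at 9.10, 8.74 and 9.32 in GATA3 knockdown and at 9.43 and 9.10 in HIF-1α knockdown, where the third array had no value. Its probe was dim, and the processing mattered. Its log2 change in HIF-1α knockdown was 0.18 here, 0.71 with the processed signal and 0.64 on the authors' table. MX1, below background throughout, was at 7.11, 6.99 and 6.86, at 7.17, 7.28 and 7.12, and at 7.24, 6.87 and 7.36.

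The GATA3 knockdown was compared with si-Control to ask which interferon-stimulated genes depend on GATA3 under hypoxia. At an unadjusted P of 0.05, TLR3 fell and none of the other 45 genes passed. This was 1 of 46 (2.17%), against 2.94% of the 47720 genes tested, of which 1.58% were called higher and 1.36% lower. The share was thus no larger than the background. TLR3, the endosomal sensor of double-stranded RNA, was at 9.73, 9.23 and 9.91 in si-Control and at 8.65 and 8.93 in GATA3 knockdown, where replicate 2 had no value, and these groups did not overlap (log2 change -0.83, SE 0.30, adjusted P = 1.00). Without si-Control replicate 1, si-Control replicate 3 or GATA3 knockdown replicate 1, TLR3 no longer passed, nor did it on the authors' table or with 75th percentile scaling after normexp. It kept its sign in all 10 alternative settings, with changes from -1.14 to -0.63. RSAD2 had the largest estimated change of the list, -1.76 (SE 1.11, adjusted P = 1.00), with overlapping groups, and was not called. In GATA3 knockdown the probes of TLR3 and RSAD2 were each well above background on only 2 of 3 arrays. The median over the 46 genes was -0.16, with 13 higher and 33 lower, and -0.02 over all genes. This direction rested on single arrays. Without si-Control replicate 3, in which these genes were highest, the median became 0.21, with 27 higher and 19 lower, and without GATA3 knockdown replicate 2, in which they were lowest, it became 0.03.

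Within slides, the GATA3 knockdown array stood above its si-Control array on slide 1 (median 0.23, 33 genes higher and 12 lower) and below it on slides 2 and 3 (-0.49 and -0.57 respectively). With the slide as a replicate block, 5 of the 46 genes passed, a larger share than the 4.96% of all genes. TLR3, OAS2 (log2 change -0.76), RSAD2 (-1.76) and BST2 (-0.83) were lower, and IFITM2 (0.66) was higher. None had an adjusted P under 0.9 (RSAD2 0.913, the others 0.973 or more). MX2, RSAD2, BST2, CMPK2 and STAT2 were lower in GATA3 knockdown on all 3 slides, which was 5 of the 43 genes with every value (11.6%, against 14.4% of all genes). MX1 and IFITM2 were higher on all 3 (4.65%, against 14.4%).

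The comparison of HIF-1α knockdown with si-Control asks the same of HIF-1α. OAS2 and USP18 rose, which was 2 of 46 (4.35%), against 5.22% of the 47368 genes tested, of which 1.97% were called higher and 3.25% lower. OAS2, another oligoadenylate synthetase, was at 11.09, 10.53 and 10.42 in si-Control and at 11.41, 11.09 and 11.77 in HIF-1α knockdown (log2 change 0.74, SE 0.28, adjusted P = 0.823). USP18, the protease that removes ISG15 and dampens interferon receptor signalling, was at 10.31, 10.24 and 9.72 in si-Control and at 10.40, 10.68 and 11.46 in HIF-1α knockdown (0.76, SE 0.33, adjusted P = 0.823). In both genes the groups did not overlap, although for OAS2 the highest si-Control value, 11.0869, lay just under the lowest of HIF-1α knockdown, 11.0899. Neither call held on every subset or setting. Both were lost without si-Control replicate 2 or 3 or HIF-1α knockdown replicate 3. OAS2 was also lost without HIF-1α knockdown replicate 1, and USP18 without HIF-1α knockdown replicate 2 or GATA3 knockdown replicate 1 or 3. Of the alternative settings, OAS2 passed in 6 of 10 and USP18 in 7 of 11.

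The probes of OAS2 disagreed. The values above come from the brightest of 3 probes. The middle probe, whose signal was well above background in 8 of 9 arrays, had a log2 change of -0.06, the mean of the probes had one of 0.10, and neither passed. In si-Control the third array exceeded the mean of the first and second by 1.48 on the middle probe and differed by -0.39 on the brightest. The dimmest probe was well above background on 1 of the 9 arrays and is not used here.

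Over the 46 genes the median change in HIF-1α knockdown was -0.04, with 22 higher and 24 lower, and -0.01 over all genes. It became 0.21, with 36 higher and 10 lower, without si-Control replicate 3. Within slides the median was 0.26 and 0.14 on slides 1 and 2 and -0.56 on slide 3, where 6 genes were higher and 38 lower. With the replicate block OAS2 alone passed, 1 of 46, against 8.41% of all genes. Because both comparisons used the same si-Control arrays, a high or low control array moved both.

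**Figure D3:**
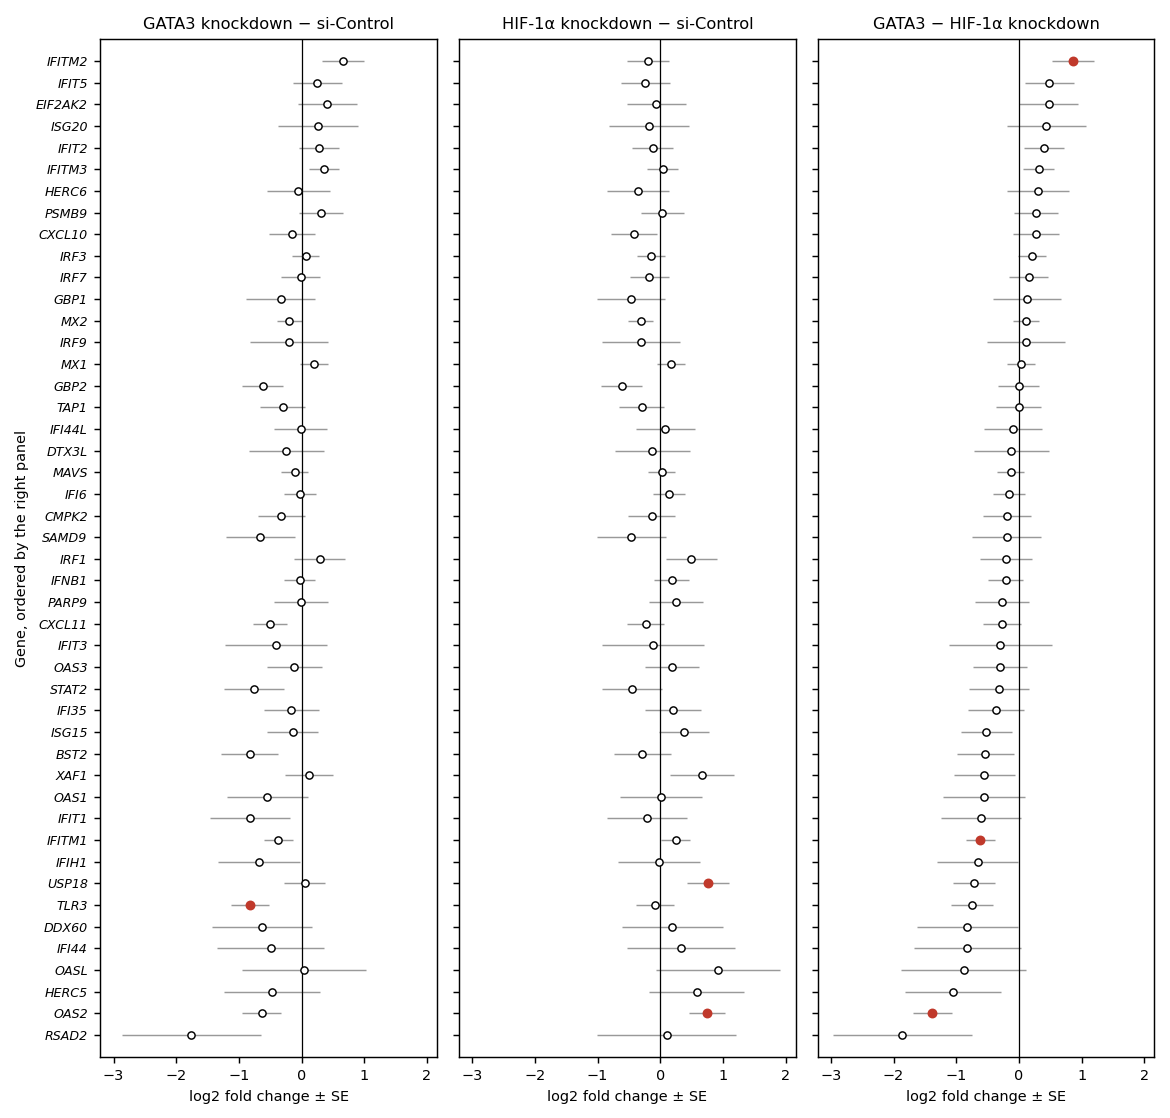
Log2 fold change ± SE of the 46 genes in GATA3 knockdown against si-Control (left), HIF-1α knockdown against si-Control (middle) and GATA3 against HIF-1α knockdown (right), each from 3 arrays a group, with filled red points for an unadjusted P of 0.05 or less. There are 1, 2 and 3 filled points, and the bars are longest for RSAD2, whose SE is 1.11.

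The knockdowns were also compared with each other, which leaves the control arrays out of the difference. With siGATA3, OAS2 and IFITM1 were lower and IFITM2 was higher than with siHIF1A. These 3 of 46 (6.52%) stood against 12% of the 47356 genes tested, of which 6.94% were called higher and 5.08% lower, a share below the background. OAS2 was at 10.01 and 10.08 in GATA3 knockdown, with no value for replicate 2, and at 11.09 to 11.77 in HIF-1α knockdown (log2 difference -1.38, SE 0.31, adjusted P = 0.255). This call held in all 9 fits that left out 1 array, with differences from -1.55 to -1.21, but the mean of the 3 probes gave -0.66 and the middle probe -0.04, and neither passed.

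IFITM1 and IFITM2 are membrane proteins that hinder the fusion of viral and endosomal membranes, and they moved in opposite directions. IFITM1 was at 15.03, 15.19 and 15.60 in si-Control, at 15.06, 14.70 and 14.95 in GATA3 knockdown and at 15.51, 15.52 and 15.52 in HIF-1α knockdown. The GATA3 knockdown arrays all lay below the HIF-1α knockdown arrays, and the si-Control range overlapped both (difference between the knockdowns -0.62, SE 0.23, adjusted P = 0.387). A second IFITM1 probe gave -0.59 and did not pass. IFITM2 was at 15.86, 15.30 and 16.04 in si-Control, at 16.21, 16.16 and 16.81 in GATA3 knockdown and at 16.06, 15.00 and 15.53 in HIF-1α knockdown (difference 0.86, SE 0.34, adjusted P = 0.393). Every GATA3 knockdown value lay above every other value of IFITM2, although its lowest, 16.16, was close to the highest of HIF-1α knockdown, 16.06. IFITM1 and IFITM2 are closely related genes, and how far their probes share signal was not tested. The IFITM1 call was lost without GATA3 knockdown replicate 2 or any 1 of the HIF-1α knockdown arrays, and it held in 7 of 11 alternative settings, failing with the processed signal, on the authors' table, with 75th percentile scaling after normexp and with the mean of the probes. The IFITM2 call held in 11 of 11 and was lost without GATA3 knockdown replicate 3 or HIF-1α knockdown replicates 2 or 3.

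RSAD2 and HERC5 had estimated differences between the knockdowns of -1.86 (SE 1.11, adjusted P = 0.464) and -1.05 (SE 0.77, adjusted P = 0.516), and neither was called. On each slide the GATA3 knockdown array was below the HIF-1α knockdown array for both, as it was for IFIT1, ISG15, OAS1, OASL, IFI44, IFIH1, IFITM1, BST2, USP18, PARP9 and MAVS, in all 13 of the 40 genes with every value (32.5%, against 18.2% of all genes). IFIT5, IFITM2 and IRF3 were above on each slide (7.5%, against 19.9%). With the replicate block 4 of the 46 genes passed, a smaller share than the 18.7% of all genes: OAS2, IFITM1, IFITM2 and RSAD2 (for RSAD2, adjusted P = 0.184). The median over the 46 genes was -0.20, with 15 higher and 31 lower, and 0.0008 over all genes. It was -0.09, -0.45 and 0.07 within slides 1, 2 and 3.

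**Figure D4:**
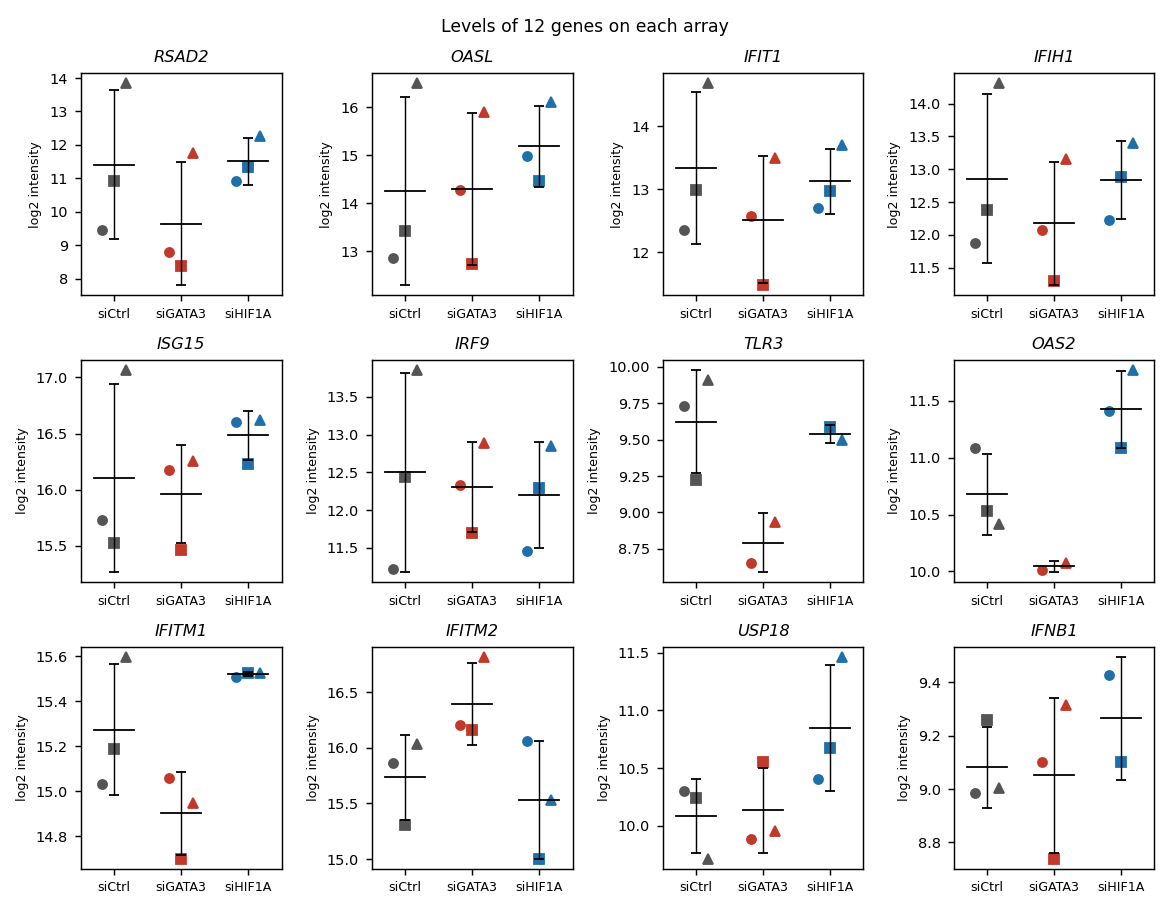
Log2 intensity of 12 genes on each array (circle, square and triangle for replicates 1, 2 and 3), with the mean and SD of each group (n = 3, fewer where a spot was flagged), on axes that do not start at 0 and differ between panels. In the first 6 panels the triangle is the highest value of its group. TLR3, OAS2, IFITM1, IFITM2 and USP18 separate a pair of groups without a clear order of that kind in every group. For TLR3 and IFITM2 the triangle is still the highest in si-Control and GATA3 knockdown.

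By role, the list showed no group in which most members passed a test. In GATA3 knockdown the 4 sensors and adaptor genes ranged from -0.83 to -0.11, the 5 transcription factors from -0.76 to 0.29, and the 10 RNA-binding and RNA-degrading effectors from -0.82 to 0.41, with 5 higher and 5 lower. In HIF-1α knockdown the 4 genes of the ISG15 system ranged from -0.35 to 0.76 and the 4 GTPases from -0.62 to 0.17. The 3 ligands and chemokines, IFNB1, CXCL10 and CXCL11, were not called in any comparison. IFNB1 was called lower with siGATA3 than with siHIF1A in 2 of 10 alternative settings, the processed signal and the authors' table, where its difference reached -0.99 against -0.21 here. The antigen-processing genes TAP1 and PSMB9 were not called in any of the 3 comparisons.

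The wider interferon pathway was read from a second list of 84 genes, of which 83 were measured and 82 were well above background. In GATA3 knockdown 4 were called (4.82%, against 2.94% of all genes): the cytidine deaminases APOBEC3C (log2 change -0.88) and APOBEC3B (-0.68) and the antibody receptor TRIM21 (-0.82) fell, and the nuclear body protein SP100 (0.58) rose. In HIF-1α knockdown 4 were called (4.82%, against 5.22%). IFNG (1.00), whose probe was above background on 6 of 9 arrays, and SAMHD1 (0.74), which depletes nucleotides, rose. HLA-C (-0.96) and APOBEC3C (-0.76) fell. Between the knockdowns 12 were called (14.5%, against 12%), with 7 higher and 5 lower with siGATA3. The 10 with the largest differences were IFNK (1.72), the interferon-γ receptor chain IFNGR2 (1.44), the signalling proteins TRAF3 (1.33) and TBK1 (1.24), IFNG (-1.08), the DNA sensor IFI16 (1.03), TRIM21 (-1.03), PARP12 (0.97), the receptor kinase JAK1 (0.89) and IRF5 (-0.86). IFNK lacked values on some arrays, too many in si-Control for an SD. Its SD in GATA3 knockdown was 1.43, and the SE of its difference between the knockdowns was 0.67. No adjusted P was under 0.3 in any of these 3 comparisons. The slide term passed for 27 of 82 (32.9%, against 18% of all genes), with the interferon receptor chain IFNAR1 first. On the third array IFNAR1 was 1.37, 1.19 and 0.23 higher than the mean of the first and second, in the control, siGATA3 and siHIF1A groups in that order.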

How the data were processed

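Per the labels and the study's methods, RNA was hybridised to 1-colour Agilent 8x60K arrays, with Agilent Feature Extraction 10.5.1.1 named in the submitters' processing notes. The deposited scanner files gave median spot intensity and background for 62976 spots. The authors' log2 table, used as an alternative, held the log2 processed signal less each array's 75th percentile. From the intensities, normexp correction (offset 50), removal of non-uniform spots and quantile normalisation were applied, control spots were dropped, and spots of a probe were averaged. Of 58201 probes, 31104 matched 22439 RefSeq symbols, and the brightest probe stood for a gene. All 9 arrays entered 1 limma fit (limma 3.58.1, R 4.3.3), checked on simulated data. A gene was called at an unadjusted two-sided P of 0.05, the study's threshold, with Benjamini-Hochberg adjustment over all genes beside it. Full values are given for genes called in any contrast, genes changed by 1 or more on the log2 scale and detected, and 15 genes fixed by name. The genes and lists were chosen with earlier results of these data known. The number of arrays limits the precision.

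Deviations from the group means correlated between -0.19 and 0.72 in the 9 pairs of arrays with the same number and between -0.69 and 0.48 in the 18 other pairs.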

Additional observations from a re-analysis of the deposited data

How the results depend on the processing

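At an unadjusted P of 0.05 the list held 1 call in GATA3 knockdown, 2 in HIF-1α knockdown and 3 between the knockdowns, and after adjustment over all genes 0, 0 and 0. Those counts did not move with normexp without an offset, without background correction or with dim probes filtered out. In these settings 2.93% to 3.01%, 5.26% to 5.49% and 11.8% to 12.8% of all genes were called. The counts in other settings follow in the order of the comparisons just given, with the shares of all genes called in brackets. Each count is out of 45 or 46 genes unless another number is given. They were 2, 0 and 4 with the 75th percentile of the processed signal (6.4%, 5.08% and 10.1%). On the authors' log2 table they were 1, 1 and 4 (6.07%, 4.9% and 10.1%). With 75th percentile scaling after normexp they were 0, 2 and 4 (2.19%, 4.74% and 11.5%). With non-uniform spots kept they were 1, 1 and 3 (2.94%, 5.02% and 12%). The mean of a gene's probes gave 1, 1 and 2 (3%, 5.2% and 11.7%), and separate fits of 6 arrays 1, 1 and 5 (1.93%, 5.37% and 18.2%). The eBayes fit with trend and robust options took only the 40 genes without a missing value and gave 0, 0 and 2 (3.04%, 4.83% and 11.6%). The genes behind equal counts differed: the 1 call in GATA3 knockdown on the authors' table was MX1, not TLR3, and MX1 was also 1 of the 2 with the processed signal (log2 change up to 1.19), although its probe was above background on no array. With the replicate block, where the replicate number is also the slide, the counts were 5, 1 and 4 of 46 (4.96%, 8.41% and 18.7% of all genes). Correlations did not meet the rule for pairing by number, so the block rests on the slide in the file headers. Leaving out 1 array at a time gave 1 to 4, 0 to 3 and 1 to 6 calls, with medians over the list from -0.44 to 0.21, -0.25 to 0.21 and -0.38 to -0.05. The shares of all genes called in those fits ran from 1.99% to 12.6%, 2.97% to 10.1% and 5.68% to 20.6%. The 6 calls, made without si-Control replicate 3, stood against 19.9%. Settings chosen after the data were seen left out 1 slide. They gave 2, 2 and 2 calls without replicate 1 of every group (1.85%, 3.88% and 4.16% of all genes). Without replicate 2 there were 1, 0 and 1 (1.56%, 4.42% and 14.4%), and without replicate 3 there were 1, 2 and 5 (4.53%, 2.98% and 6.13%). No gene behind the 1, 2 and 3 calls changed direction under any of these settings. The probes of XAF1 disagreed between the knockdowns. Its brightest probe gave -0.55 and was not called. A dimmer one, well above background on 9 arrays, gave 0.68 (limma on single probes, unadjusted P = 0.024). Counts over all genes also moved: in GATA3 knockdown 1404 were called, against 3056 with the processed signal, 2900 on the authors' table, 2368 with the block and 5949 without si-Control replicate 3. In HIF-1α knockdown 2471 were called, against 3984 with the block and 4800 without si-Control replicate 1, and between the knockdowns 5689, against 8875 with the block and 2688 without GATA3 knockdown replicate 3. The cause of these shifts was not tested. Signal over background limits MX1, which was not well above background on any array. In GATA3 knockdown the probes of TLR3, RSAD2, OAS1, CMPK2 and CXCL10 were well above background on 2 of 3 arrays, and that of IFI44L on 1. CXCL10 was so on 2 of 3 arrays in HIF-1α knockdown as well. The number of arrays limits every comparison.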
